A study of Mus musculus with 6 samples.

Results

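Cytotoxic and T lymphocyte markers were examined in whole liver as 10 genes: Gzmb, Gzma, Prf1 and Nkg7 of the killing granule, the cytokine receptor chain Il2rb, the T cell receptor subunits Cd3e and Cd3g, the co-receptors Cd8a and Cd4, and the adhesion receptor Cd2. Every probe set annotated to exactly one of these symbols was taken, which gave 16 probe sets among 45141 on the array, and the 10 genes stand among 17097 genes with a probe set of their own. The group was chosen by the measured signal of Gzmb, already seen to be higher in knockout liver on these arrays, so the genotype difference of these genes is given as a description and not as a test. The arrays came from livers of Nrg4 knockout mice (3 arrays) and of wild type mice (3 arrays), both of strain C57BL/6, placed on a high-fat diet at 3 months of age for 8 weeks and killed in the random fed state. Nrg4 encodes neuregulin 4, a growth factor that signals through ErbB receptors. Each array carried a separate pool of liver RNA. The labels state neither how many animals made up a pool nor how the Nrg4 allele was built. The spread between arrays is therefore a spread between pools.

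Cytotoxic lymphocytes, which are CD8+ T cells and natural killer (NK) cells, kill by releasing granules that hold perforin and granzymes. Perforin opens the membrane of the target cell, and granzymes are serine proteases that enter through it and set off cell death. The liver holds a resident population of NK cells, NKT cells and memory T cells in its sinusoids, a small share of a tissue made up mostly of hepatocytes. Granzyme B is not restricted to these cells, since mast cells and plasmacytoid dendritic cells can also make it. In a whole tissue, fewer cells of a type and less RNA per cell cannot be told apart.

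The promoters of Gzmb and Gzma are shown first, because both granzyme genes among the 10 had knockout values that lay entirely above the wild type values. The sequences are from RefSeq, build GRCm38.p6, and run from 250 bases before to 50 bases after the gene's start, 5′ to 3′ on the gene's strand. Capitals mark the core RUNX motif TGTGGT or its reverse complement ACCACA, and the AP-1 motif TGANTCA, searched on both strands. RUNX factors and AP-1 are known regulators of mouse Gzmb in T cells. The Gzmb window is chr14:56262285-56262584 on the minus strand, the Gzma window chr13:113100932-113101231 on the minus strand, and the Cd3e window, shown as a T cell gene with neither motif, chr9:45009562-45009861 on the minus strand.
Gzmb: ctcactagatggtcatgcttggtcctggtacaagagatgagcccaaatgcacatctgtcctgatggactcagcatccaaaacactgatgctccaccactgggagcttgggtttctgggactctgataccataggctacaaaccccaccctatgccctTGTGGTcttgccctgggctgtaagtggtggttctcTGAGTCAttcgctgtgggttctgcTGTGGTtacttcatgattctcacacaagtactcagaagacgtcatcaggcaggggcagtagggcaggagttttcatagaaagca
Gzma: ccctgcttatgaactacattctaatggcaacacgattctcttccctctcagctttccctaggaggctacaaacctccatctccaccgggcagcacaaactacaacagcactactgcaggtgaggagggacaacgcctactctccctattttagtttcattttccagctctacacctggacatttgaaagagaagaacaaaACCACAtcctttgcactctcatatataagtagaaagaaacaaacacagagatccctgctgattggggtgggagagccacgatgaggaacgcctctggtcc
Cd3e: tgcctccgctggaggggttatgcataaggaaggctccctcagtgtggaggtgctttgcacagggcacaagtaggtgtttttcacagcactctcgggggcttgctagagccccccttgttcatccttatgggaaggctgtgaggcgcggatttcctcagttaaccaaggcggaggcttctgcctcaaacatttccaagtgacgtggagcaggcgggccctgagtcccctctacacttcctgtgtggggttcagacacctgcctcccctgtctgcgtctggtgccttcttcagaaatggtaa
The Gzmb window held the RUNX core from base 158 to 163 and again from base 217 to 222, counted from 1 at its 5′ end, and the AP-1 motif from base 193 to 199. The Gzma window held the RUNX core from base 201 to 206. Of the 10 genes, 7 had a promoter in the table, and the RUNX core was found in 4 of these (Gzmb, Gzma, Prf1 and Nkg7). It was found in 16.8% of all 32851 promoter windows. The AP-1 motif was in 1 of the 7 and in 7.8% of all windows. The T-box core TCACACC, or GGTGTGA on the other strand, was in the Nkg7 window alone among the 7, against 4.0% of all windows. No motif overlapped another in the windows shown. These are letter matches, and no binding was measured. Cd3e, with neither motif, also had knockout values entirely above wild type, while in Prf1 and Nkg7, with the RUNX core, the genotypes overlapped. Nothing about the genotype difference is read from the motifs.

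The arrays carried the labelled genotype. Nrg4 read 2.56, 2.43 and 2.64 on the log2 scale in the knockout arrays, against 4.94, 4.79 and 4.77 in the wild type arrays. Array medians ran from 2.98 to 3.04. All 8 hepatocyte markers with a probe set (Alb and Ttr among them) were well above the background limit described next. Every value below is a log2 RMA signal, a normalised and background-adjusted intensity of a probe set. The level of one probe set cannot be set against that of another as an amount of RNA, so the background limits are only a guide.

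Most of these markers were near background in liver. As a guide to background, 83 probe sets of olfactory and vomeronasal receptors, genes not expected in liver, had mean signals from 1.38 to 3.43, with a median of 2.19. Their 95th percentile, 3.23, served as the background limit, and a gene whose main probe set (the one with the highest mean over the 6 arrays) averaged at or below it was called near background. By this limit 8 of the 10 genes were near background (Gzmb, Gzma, Prf1, Nkg7, Il2rb, Cd3g, Cd8a and Cd2), and only Cd3e and Cd4 were above it. The call depends on the limit. At the 75th percentile of the receptors (2.67), the 95th percentile of the nonspecific control probe sets (2.64) or the 40th percentile of all probe sets (2.66), 3 genes (Gzma, Cd3g and Cd2) were near background and 7 were above. The 40th percentile was also the dim limit for the genotype fit, so these 7 entered the fit over 12475 genes. A gene may pass the dim limit through one genotype alone, as Gzmb did.

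**Figure D1:**
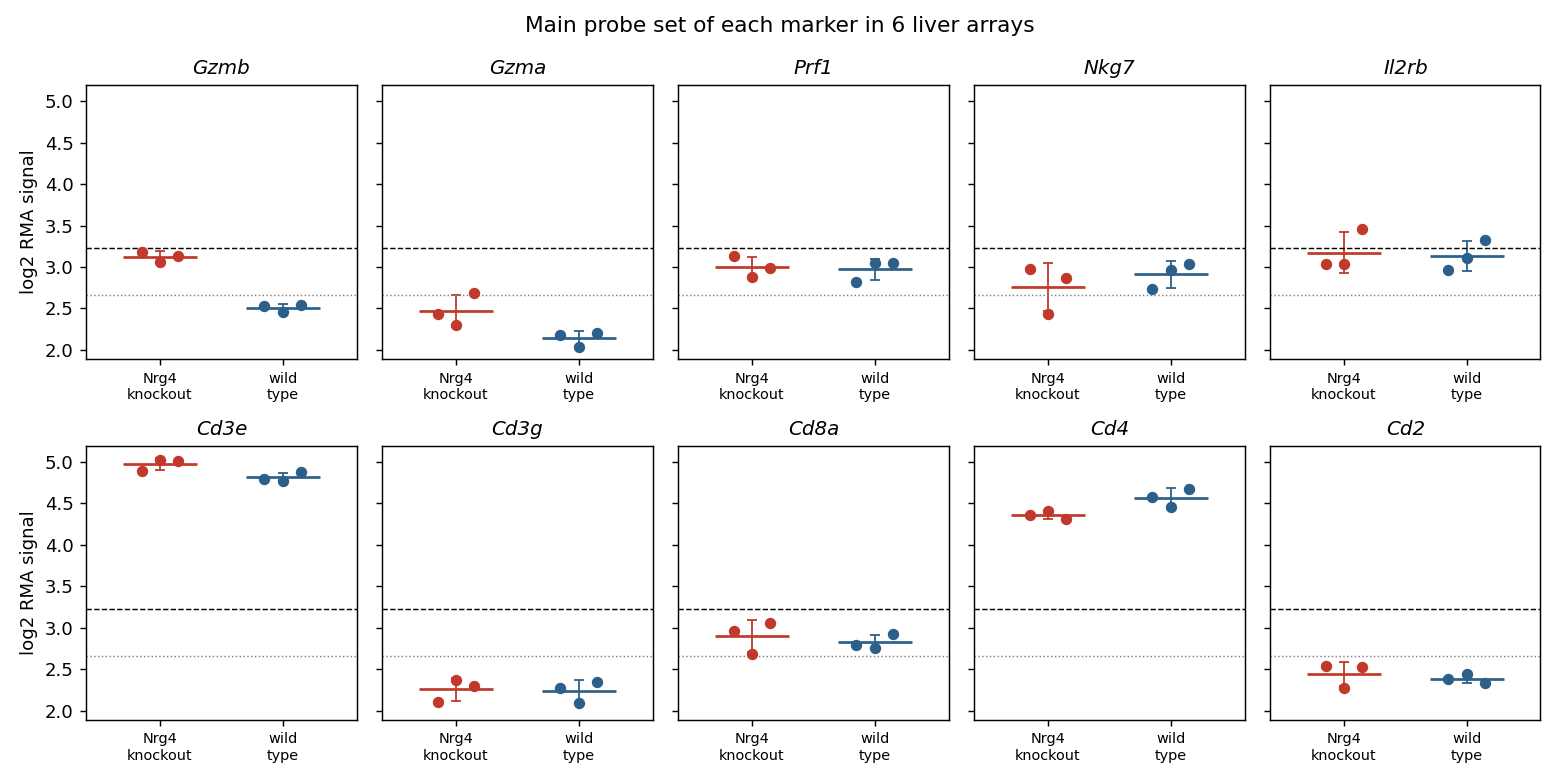
Log2 RMA signal (y axis) of the main probe set of each of the 10 genes in 3 knockout arrays (red, left) and 3 wild type arrays (blue, right); points are arrays, horizontal lines are means and bars are SD. The dashed line is the receptor background limit (3.23) and the dotted line the dim limit (2.66). Cd3e and Cd4 stand above the dashed line in all 6 arrays, and Gzmb in knockout lies between the lines.

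Gzmb, granzyme B, a protease that cuts after aspartate and activates caspases, had the widest gap between genotypes among the 10 genes. Its single probe set read 3.19, 3.06 and 3.13 in knockout livers, against 2.53, 2.46 and 2.55 in wild type livers. The 3 knockout arrays were all higher than the 3 wild type arrays and differed from one another by little. The mean was 3.12 ± 0.06 in knockout and 2.51 ± 0.05 in wild type (SD, n = 3 each), a log2 change of 0.61 (SE 0.08), or 1.53-fold as measured. Even in knockout, no array exceeded the receptor limit of 3.23, though the 3 knockout arrays exceeded the other limits (2.67, 2.64 and 2.66). The wild type arrays were under all 4 limits. By the receptor limit the fold is between readings near background, and by the others its wild type side is. The receptor probe sets had log2 changes from -0.31 to 0.27, and among them the genotypes did not overlap upward in 3.61% and downward in 9.64%; these values describe background probe sets, and nothing is read from setting Gzmb, chosen for its change, against them. Without any one array the change lay between 0.58 and 0.65.

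The brightest of the nonspecific control probe sets but one, a measure of unspecific signal, read 2.51, 2.81 and 2.91 in the knockout arrays and 2.63, 2.50 and 2.50 in the wild type arrays. Knockout replicates 2 and 3 were the highest of the 6 on this measure. The medians of the same control probe sets differed less, at 1.65, 1.71 and 1.76 in knockout and 1.70, 1.68 and 1.66 in wild type. The medians of the 83 receptors were 2.22, 2.15 and 2.22 in knockout and 2.17, 2.22 and 2.24 in wild type. The part of unspecific signal in the Gzmb and Gzma values was not tested.

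Gzma, granzyme A, a protease that cuts after basic residues, read 2.44, 2.30 and 2.68 in knockout livers, against 2.18, 2.04 and 2.21 in wild type livers. The knockout arrays were again all above the wild type arrays, by a narrow margin. The means were 2.47 ± 0.20 in knockout and 2.14 ± 0.09 in wild type (SD, n = 3 each), with a log2 change of 0.33 (SE 0.11). Its mean over all arrays was under every background limit used, so the gene was left out of the fit as dim, and its change comes from a fit without the filter.

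The genotypes overlapped in both other granule members. Prf1, perforin, the pore-forming protein that lets granzymes into the target cell, read 3.13, 2.88 and 2.99 in knockout livers, against 2.82, 3.04 and 3.05 in wild type livers. The log2 change was 0.03 (SE 0.10). Its second probe set overlapped too, with a change of 0.05 (SE 0.12). Nkg7, a membrane protein of cytotoxic granules, read 2.98, 2.43 and 2.87 in knockout livers, against 2.73, 2.96 and 3.04 in wild type livers. Knockout replicate 2 was the lowest array, and the log2 change was -0.15 (SE 0.15); without that array it was 0.01.

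Il2rb, the beta chain shared by the receptors for interleukin 2 and interleukin 15, had 3 probe sets that differed in sign. The main one read 3.03, 3.03 and 3.46 in knockout livers, against 2.96, 3.11 and 3.33 in wild type livers. Replicate 3 of each genotype lay over the receptor limit, and the genotypes overlapped, with a log2 change of 0.04 (SE 0.14). The others stood at -0.04 (SE 0.11) and -0.24 (SE 0.11). The last of these read 2.50, 2.19 and 2.17 in knockout and 2.55, 2.48 and 2.55 in wild type, and both it and the other secondary probe set were under the dim limit.

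The CD3 chains carry the signal of the T cell receptor into the cell. Cd3e was above the receptor limit in all 6 arrays, at 4.90, 5.02 and 5.01 in knockout livers and 4.80, 4.76 and 4.88 in wild type livers. The knockout arrays were all higher, and knockout replicate 1 lay close to wild type replicate 3. The means were 4.98 ± 0.07 in knockout and 4.81 ± 0.06 in wild type (SD, n = 3 each), a log2 change of 0.16 (SE 0.09), or 1.12-fold. Cd3g, the partner of Cd3e in the same complex, read 2.11, 2.37 and 2.30 in knockout livers, against 2.27, 2.09 and 2.35 in wild type livers. The genotypes overlapped at a dim level, with a log2 change of 0.02 (SE 0.11). Cd3d, another chain of the complex and a member of the T cell list below, read 3.40, 3.50 and 3.51 in knockout livers, against 3.44, 3.21 and 3.32 in wild type livers, and the genotypes overlapped. Cd3e, Cd3g and Cd3d are on the chromosome of Nrg4, between 10 and 20 Mb from it, so an effect of sequence around the targeted locus and an effect of genotype cannot be told apart for them. None of the other 8 genes is on that chromosome.

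The co-receptors define the main branches of T cells. Cd4, the co-receptor for MHC class II on helper T cells, went the other way from Gzmb. Its main probe set read 4.36, 4.41 and 4.31 in knockout livers, against 4.58, 4.45 and 4.67 in wild type livers. All knockout arrays were lower, knockout replicate 2 and wild type replicate 2 being the nearest to each other. The means were 4.36 ± 0.05 in knockout and 4.57 ± 0.11 in wild type (SD, n = 3 each), a log2 change of -0.21 (SE 0.09). The second probe set of Cd4 was dim, with overlapping genotypes and a change of -0.07 (SE 0.10). Cd8a, the co-receptor for MHC class I on cytotoxic T cells, read 2.96, 2.69 and 3.05 in knockout livers, against 2.80, 2.76 and 2.92 in wild type livers. Its log2 change was 0.08 (SE 0.11), the genotypes overlapped, and the other probe sets stood at 0.01 (SE 0.14) and 0.08 (SE 0.09). Cd2, an adhesion receptor of T and NK cells, read 2.53, 2.28 and 2.52 in knockout livers, against 2.38, 2.45 and 2.34 in wild type livers, with overlap and a log2 change of 0.06 (SE 0.10).

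**Figure D2:**
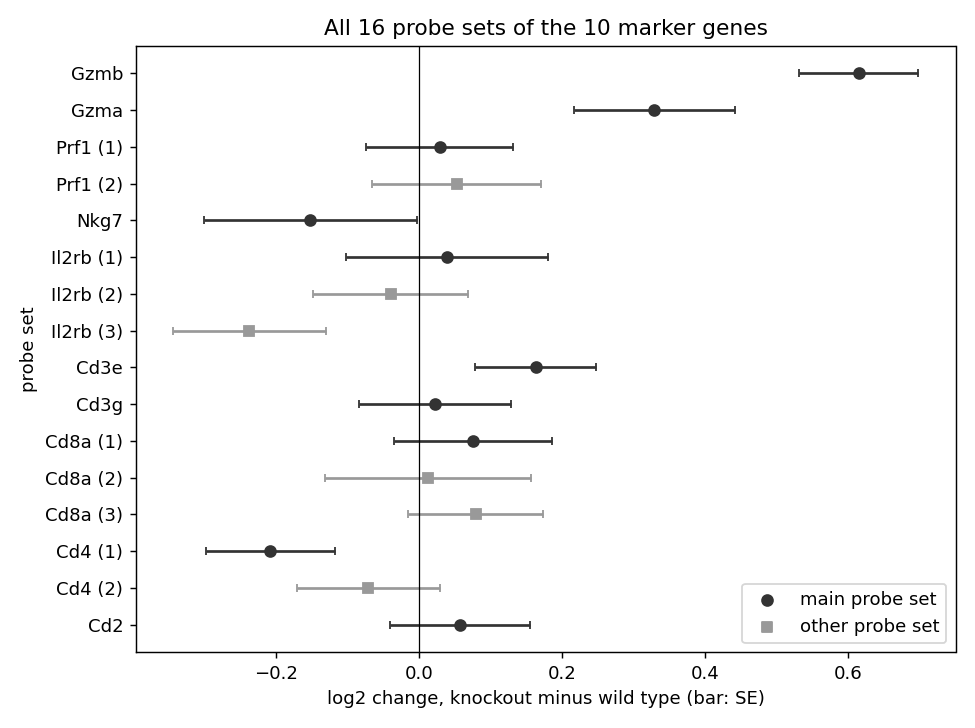
Log2 change, knockout minus wild type (x axis, bars are SE), of all 16 probe sets of the 10 genes; circles are main probe sets and squares the others. Gzmb stands at 0.61, Gzma at 0.33 and the main probe set of Cd4 at -0.21, and most others lie within 1 SE of 0.

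Over the group, 0 of the 7 genes that entered the fit passed limma's test at an adjusted p under 0.05, where 0.0401% of all genes tested passed. At an unadjusted limma p under 0.05 there was 1 gene higher (Gzmb) and 0 lower, where 7.37% of all genes tested were higher and 2.18% lower. The genotypes did not overlap in 2 of the 7 upward (Gzmb and Cd3e), where 11.7% of all genes tested did so, and in 1 downward (Cd4), where 3.93% did. In either direction the 7 gave 3, where all genes tested gave 15.6%. Gzma adds 1 more upward when dim genes are kept, where the share over all genes was 10.2%. These counts include the gene for which the group was chosen, and nothing is read from them. The median log2 change of the 7 was 0.04, beside 0.04 over all genes tested. Of the 7, 5 had a higher and 2 a lower mean in knockout, where 63.4% of all genes tested had a higher one. With 3 arrays against 3, an exact permutation test cannot give a p below 0.1 for any single gene.

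**Figure D3:**
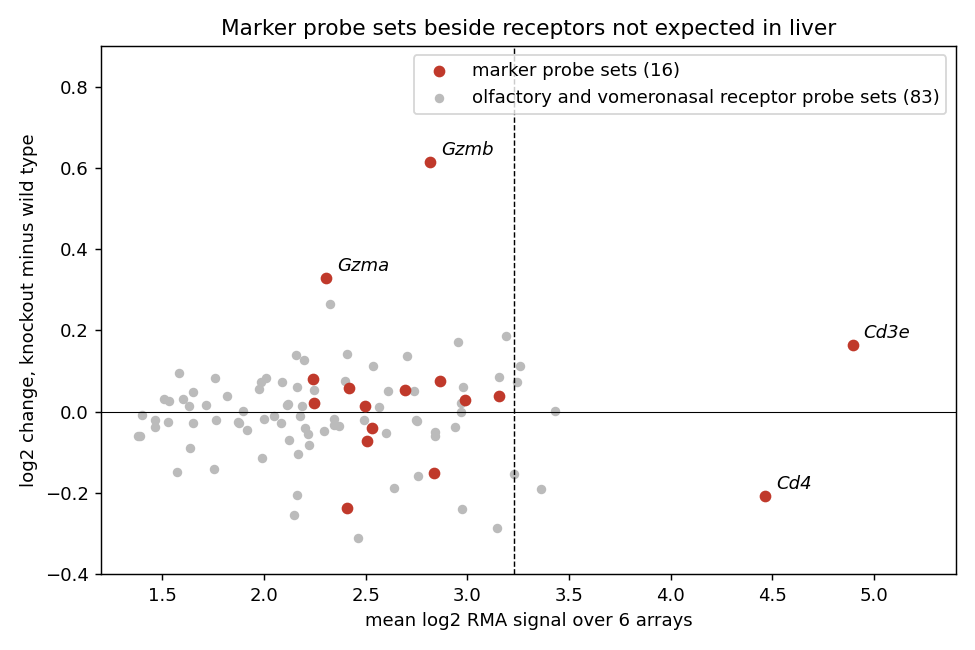
Mean log2 RMA signal over the 6 arrays (x axis) and log2 change, knockout minus wild type (y axis), of the 16 marker probe sets (red) and 83 receptor probe sets (grey); the dashed line is the receptor limit of 3.23. Gzmb and Gzma lie to the left of the limit, and of the red points only Cd3e and the main probe set of Cd4 lie to the right of it.

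Other genes of lymphocytes, and genes of other leukocytes and of hepatocytes, were examined as lists in the same limma fit over all 12475 genes. No gene of the 9 lists passed at adjusted p under 0.05 (0 of 80 tested, limma), while 18 had an unadjusted p under 0.05, where 9.55% of all genes tested did. Among T cell receptor and T cell signalling genes, 9 of 20 with a probe set were tested, 0 passed in either direction, and the median log2 change was 0.15. Over all 20, dim genes included, the median was 0.04. Thy1, a surface protein of mouse T cells that also lies 10 to 20 Mb from Nrg4, read 2.97, 2.94 and 3.28 in knockout livers, against 3.71, 3.30 and 3.32 in wild type livers. Its log2 change was -0.38 (SE 0.14, limma adjusted p = 0.452), opposite in sign to that of Cd3e. Lcp2, an adaptor below the T cell receptor that macrophages and platelets also express, stood at 0.38, and Lat, another adaptor, at 0.28. Cd247, the zeta chain of the receptor, was dim, at 2.38, 2.22 and 2.24 in knockout and 2.27, 2.35 and 2.37 in wild type.

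Of the NK cell list, 7 of 15 genes were tested and 0 passed, with a median log2 change of 0.03. The genes with the largest positive changes are not particular to NK cells by what is known of them. Fcgr3, a low-affinity Fc receptor shared with macrophages, stood at 0.71 and Tyrobp, an adaptor shared with myeloid cells, at 0.45 (limma adjusted p = 0.35 and 0.357). Klrg1, an inhibitory lectin-like receptor of effector T and NK cells, read 3.26, 3.21 and 3.12 in knockout livers, against 3.42, 3.54 and 3.38 in wild type livers. All knockout arrays were lower, with a log2 change of -0.25 (SE 0.09, limma adjusted p = 0.434). Klrb1c, the NK1.1 antigen, stood at 0.03 with overlapping genotypes. Ncr1, an activating receptor that marks NK cells, was dim, at 1.99, 2.10 and 2.13 in knockout and 2.06, 2.10 and 2.13 in wild type.

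The list of granule and killing genes outside the group had 13 of 21 genes tested, 0 passed, and the median log2 change was 0.03. Tnfsf10, the death ligand TRAIL, stood at 0.40 (limma adjusted p = 0.412), Serpinb9, which inhibits granzyme B in the cells that make it, at 0.20, and Stxbp2, which takes part in granule release, at 0.17. The granzymes Gzmk and Gzmm stood at 0.09 and -0.09. The others were dim. Gzmn read 2.21, 2.18 and 2.31 in knockout livers, against 1.85, 2.16 and 1.85 in wild type livers, a log2 change of 0.28. Gzmc, Gzmd, Gzme, Gzmf and Gzmg stood at 0.07, 0.02, -0.10, 0.09 and -0.01. Ctsc, the peptidase that activates granzymes, stood at 0.10. Among lymphocyte chemokines, cytokines and receptors, 9 of 17 were tested, 0 passed, and the median log2 change was 0.19, or 0.065 over all 17. Ccl5, a chemokine made by T and NK cells among others, read 4.53, 4.68 and 5.10 in knockout livers, against 4.47, 4.17 and 4.21 in wild type livers. The knockout arrays were all higher, with a log2 change of 0.49 (SE 0.15, limma adjusted p = 0.374). Il18, a cytokine that stimulates NK cells, stood at 0.54 and Cxcl16, the ligand of Cxcr6, a chemokine receptor of NKT cells, at 0.23. In both the knockout arrays were all higher than wild type. The distance from Nrg4 was not examined for Il18, nor for any list gene other than Cd3d and Thy1. An effect of sequence around the targeted locus was therefore not tested for these genes. Of the 9 tested, 6 had a higher and 3 a lower mean in knockout, where 63.4% of all genes tested had a higher one. Il15ra stood at -0.17, with all knockout arrays lower. Il2ra stood at -0.23 and Cxcl10 at -0.12, both with overlapping genotypes.

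Markers of other blood cells were measured beside these, in lists chosen with earlier results of these data known, so their counts are a description. In the macrophage and Kupffer cell list, all 12 of 12 genes tested had a higher mean in knockout, against the 63.4% of all genes tested, 0 passed, and the median log2 change was 0.34, or 0.52 without knockout replicate 1. Their summed linear signal was 1527 to 2298 in knockout and 1416 to 1575 in wild type. Knockout replicate 1 gave the lowest knockout sum, inside the wild type range. The part of macrophages in the Gzmb and Gzma values was not tested. Adgre1, which encodes F4/80, stood at 0.64 (limma adjusted p = 0.143), Mpeg1 at 0.45 and Cd5l at 0.35. General leukocyte genes were higher in 9 of 10, with 0 passing and a median of 0.23; the median was 0.43 without knockout replicate 1, and their summed signal was 247 to 382 in knockout and 242 to 275 in wild type. Rac2 stood at 0.46, with all knockout arrays higher. Cd53 stood at 0.52 and Coro1a at 0.51, both with overlapping genotypes. Ptprc, the leukocyte antigen CD45, read 4.93, 5.83 and 6.01 in knockout livers, against 5.68, 5.30 and 5.49 in wild type livers, also with overlap.

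Of B and plasma cell genes, 6 were tested and 0 passed, with a median of 0.09. Ms4a1, the antigen CD20, stood at 0.37, Jchain at -0.35 and Bank1 at 0.20, and the summed signal was 97.6 to 122 in knockout and 110 to 112 in wild type. Of neutrophil and mast cell genes, 6 were tested and 0 passed, with a median of 0.05. Their summed signal was 68.1 to 85.3 in knockout and 69.1 to 83.7 in wild type. Plasmacytoid dendritic cells were not measured, since Siglech, the only marker listed for them, had no probe set. Kit, the stem cell factor receptor of mast cells, read 3.26, 3.27 and 3.13 in knockout livers, against 3.63, 3.45 and 3.57 in wild type livers, all lower in knockout. S100a9 stood at 0.30 (SE 0.23) and S100a8 at 0.30 (SE 0.32), both with overlapping genotypes and with knockout replicate 3 the highest array. S100a8 read 2.52, 2.50 and 3.70 in knockout livers, against 2.53, 2.27 and 3.01 in wild type livers. The other mast cell genes had higher means in knockout, each with overlapping genotypes: Tpsb2 stood at 0.09 and Mcpt4 at 0.02, and Cpa3 at 0.13 and Fcer1a at 0.07 under the dim limit. Hepatocyte genes had a median of -0.004 over 8 tested, with 0 passing, and Fgb at 0.11, Ass1 at 0.22 and Ttr at -0.04. The part of these cells in the Gzmb and Gzma values was not tested either.

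**Figure D4:**
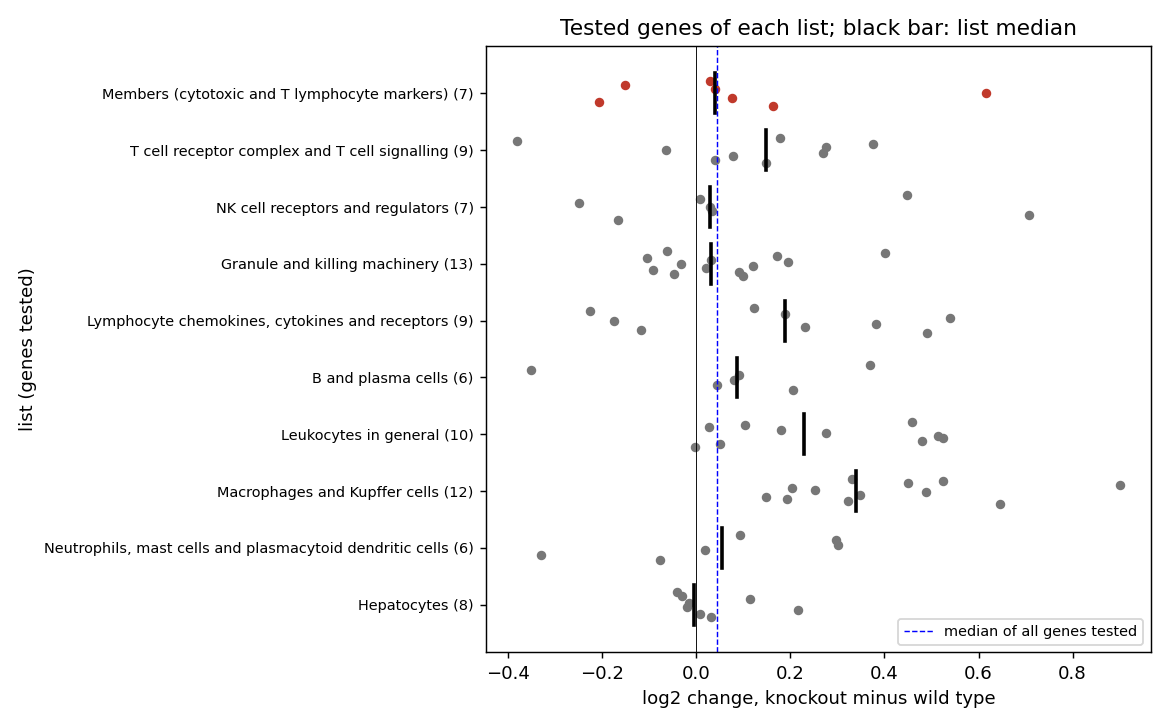
Log2 change, knockout minus wild type (x axis), of each tested gene in the 10 marker genes (red, 7 tested) and the 9 other lists (grey), with the number tested in brackets; black bars are list medians and the dashed line is the median of all 12475 genes. The red median lies at that of all genes, and the macrophage list has the most positive median, 0.34.

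The genes whose profile over the 6 arrays was most like that of Gzmb, by the root mean square difference of values centred on each gene's own mean, were Fhl1 (0.058), Ift74 (0.071) and Chac1 (0.079). Fhl1, a LIM domain protein of muscle and other tissues, read 5.25, 5.11 and 5.21 in knockout livers, against 4.72, 4.50 and 4.57 in wild type livers. Ift74, a part of the ciliary transport machinery, had a log2 change of 0.53 and Chac1, a stress-induced glutathione-degrading enzyme, of 0.48. These genes were picked for likeness to Gzmb, so their own genotype difference is a description. The mean of Cd3e and Cd4, the members above the background limit, was nearly flat because these genes went opposite ways, and the profiles nearest to it were those of Fkbp1a, Ambp and Gm4117, with differences of 0.018 each.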

How the data were processed

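Total RNA (250 ng per array, 3' IVT labelling) went onto MG-430 PM strip arrays from Affymetrix, per the labels. The deposited table holds log2 RMA values (background-subtracted, quantile-normalised and summarised per probe set by the authors); affy, RMA and limma are named without versions, per the submitters' processing notes, and no genome build is given in the sources used here. The 6 arrays were grouped by the genotype in their titles. Of 45141 probe sets, 28898 had 1 gene symbol. List genes were matched by current symbol, and 28689 of these probe sets matched RefSeq (GRCm38.p6) by gene number. A gene was represented by its brightest probe set, and genes whose mean lay below 2.66, the 40th percentile over probe sets, were left out.

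Knockout was compared with wild type by limma 3.58.1 (lmFit, eBayes, two-sided) in R 4.3.3, Benjamini-Hochberg adjusted over 12475 genes, threshold 0.05. SEs of secondary probe sets come from a fit of every probe set with 1 gene, and those of dim genes from a fit without the filter. Members and lists were chosen with earlier results of these data known. Named genes are the members, Nrg4, defining lymphocyte markers (Cd3d, Cd247, Ptprc, Klrb1c, Ncr1), the 3 genes of each list with the smallest p, and the 3 nearest profiles. Others (Gzmk, Gzmm, Gzmn, Gzmc, Gzmd, Gzme, Gzmf, Gzmg, Ctsc, Tpsb2, Mcpt4, Cpa3, Fcer1a, Il15ra, Il2ra, Cxcl10) were named after their values were seen. The fit was tested on simulated data. Alternatives were other dim filters, median centring, mean or every probe set, a variance trend, array weights, the replicate block and leaving out each array. Figures used matplotlib 3.10.9 in Python 3.11.15. The number of arrays limits the precision.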

Additional observations from a re-analysis of the deposited data

How the results depend on the processing

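The number of the 10 genes that passed limma at adjusted p under 0.05 was 0 in the main analysis and became 1, Gzmb, with a variance trend (29 genes called in all) and with array weights (50 genes called in all). The limma adjusted p of Gzmb was 0.060 in the main fit, 0.031 with the variance trend and 0.025 with array weights. Why these settings lowered it was not tested. Gzmb is the gene for which the group was chosen and entered the fit through its knockout values alone, so these calls and p values are a description. The count stayed at 0 under the other 12 alternatives, and at 0 to 0 when each array was left out. With the 60th percentile filter Gzmb was not in the fit and could not be called, so nothing is read from that 0. For the 9 other lists the count of 0 became 1, Adgre1, with array weights, and was 0 to 0 without each array. The replicate block gave 0 in both, and the count over all genes was 2 with the block and 5 without it. Same-numbered arrays deviated with correlations of -0.15, 0.03 and -0.009, and some different-numbered pairs with values of like size (0.16 and -0.17). With 3 arrays per genotype these cannot show whether the numbers mark shared processing. The count over all genes was 17 without knockout replicate 1 and 1 to 2 without any other array, and 3 with a 60th percentile dim filter or the mean of all probe sets.

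The number of genes near background was 8 at the receptor limit and 3 at each of the other limits. The sign of Gzmb, Cd3e and Cd4 did not turn in any of 12, 13 and 13 alternatives. Their genotypes did not overlap, so leaving out an array could not turn it. The variance trend and the replicate block leave the change as it was, so nothing is read from this. The sign turned in 3 of 13 for Prf1, 1 of 12 for Nkg7, 3 of 12 for Il2rb and 1 of 11 for Cd8a. An array was left out in every case but array weights for Prf1 (-0.02) and the mean of all probe sets for Il2rb (-0.08). With the filter at the 60th percentile, list medians became 0.45 for NK genes, 0.11 for granule genes and -0.15 for B and plasma cell genes; fewer genes were tested there. Without the filter, where dim genes enter, the median was 0.065 for chemokines and cytokines, 0.04 for T cell genes and 0.06 for B and plasma cell genes. The leukocyte median was 0.10 with the mean of all probe sets and 0.14 over every probe set. With array weights the median turned to -0.004 for NK genes and -0.01 for neutrophil and mast cell genes. Without each array in turn, the medians were 0.04 to 0.21 for T cell genes and -0.02 to 0.10 for NK genes. For granule genes they were 0.024 to 0.11 (highest without wild type replicate 1). For chemokines and cytokines they were 0.15 to 0.23, and for B and plasma cell genes 0.04 to 0.15. For leukocytes they were 0.15 to 0.43 and for macrophages 0.23 to 0.52 (both highest without knockout replicate 1). For neutrophil and mast cell genes they were -0.03 to 0.11, and for hepatocytes -0.02 to 0.03.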
